A study of Mus musculus castaneus and Mus musculus domesticus and Mus musculus with 11 samples.

Results

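Activity-regulated immediate early genes were described across libraries of motor neurons from 3 mouse lines. The set holds 10 genes, Fos, Fosb, Fosl2, Junb, Egr1, Egr3, Nr4a1, Npas4, Arc and Ier2, out of 27071 genes in the deposited matrix. They were taken by symbol, and each symbol matched a single mouse Ensembl gene ID. The 3 groups were a hybrid CASTx129 line (129CAS in the sample labels, called hybrid here), CAST/EiJ (called CAST), and 129S6/SvEv (called 129). CAST/EiJ is an inbred strain derived from wild mice of the castaneus subspecies, and 129S6/SvEv is an inbred laboratory strain. Stem cells of each line had been differentiated into neurons, and 3 libraries of polyadenylated RNA per line were analysed. The series set out to compare the transcriptional identity of these lines. The labels give no treatment, stimulus, age in culture, sex or clone and do not tell whether replicate libraries are separate cultures. The p-values below therefore measure only the spread between these samples.

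Immediate early genes are transcribed within minutes of a stimulus without need for new protein synthesis. In neurons, membrane depolarisation and synaptic input raise calcium, and calcium-dependent kinases and phosphatases and the ERK cascade act on factors such as CREB, SRF and MEF2 that are already bound near these genes. Growth factors and stress induce most of the same genes in other cells, while Npas4 is known to respond selectively to calcium in neurons. Their mRNAs are short-lived, so a level read at a single time reflects the recent state of the cells.

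Total counts ran from 7763077 to 18167577 reads per library. Markers of motor neurons and of neurons in general were present in every group. Isl1, a homeodomain factor of motor neurons, ran from 17.4 to 27.9 CPM (counts scaled to a common library total) in hybrid libraries, from 15.7 to 62.4 CPM in CAST libraries and from 13.1 to 62.7 CPM in 129 libraries. Chat, which makes acetylcholine, was at or above 5.52 CPM in all 9 libraries, while Mnx1 and Lhx3, also on the motor neuron list, were low in every line. Mnx1 ran from 0.495 to 2.51 CPM in hybrid libraries, from 1.8 to 3.41 CPM in CAST libraries and from 0.778 to 4.88 CPM in 129 libraries. Lhx3, an early motor neuron factor, reached at most 0.699, 0.619 and 2.13 CPM in these lines and was at 0 in a hybrid library. Fibroblast and mesenchyme markers were detected in every library and varied most among hybrid libraries, with the 14 markers summing to between 3050 and 55200 CPM there, between 6900 and 17000 CPM in CAST libraries and between 10800 and 45700 CPM in 129 libraries. CAST 1 and hybrid 2 stood apart by gene length. When each gene's log2 CPM relative to its mean over libraries was regressed on its log2 exon length, the slope was −0.66 in hybrid 2, −0.57 in CAST 1 and −0.26 in hybrid 3, over 14009 genes. The remaining libraries had slopes from 0.09 to 0.34.

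All 10 immediate early genes passed the filter on low counts, and none passed the test of a difference between lines. In CAST against 129, 0 of 10 passed the threshold of an adjusted p below 0.05 in edgeR's quasi-likelihood test, beside 0.917% of the 14839 genes tested. In hybrid against 129, 0 of 10 passed, beside 7.02% of genes tested. In hybrid against CAST, 0 of 10 passed, beside 6.0% of genes tested. Against the midparent, the mean of CAST and 129 on the log2 scale, 0 of 10 passed in the hybrid, beside 7.34% of genes tested. In edgeR, 0 members had an unadjusted p below 0.05 in any of the 4 comparisons. DESeq2 and limma-voom also called 0 members, and in both tools 1 member, Fosl2 in hybrid against 129, had an unadjusted p below 0.05. A joint F test over the 3 lines called 1192 genes and no member, with the lowest adjusted p at 0.351 for Fosl2. In bulk libraries such as these, fewer cells of a type and less RNA per cell cannot be told apart.

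A p that misses the threshold does not show that levels were alike, and the 95% intervals were wide. In CAST against 129 the interval lay within a 2-fold change either way for Junb and Nr4a1 alone, in hybrid against CAST for Fos alone, and in hybrid against 129 for no member. Against the midparent it lay within 2-fold for Fos, Junb and Nr4a1. The narrowest interval was 1.36 log2 units wide and the widest 3.85. The direction was mixed. The log2 fold change in CAST against 129 was positive for 4 members and negative for 6, with a median of −0.05 against 0.06 over all genes tested. In hybrid against 129, 7 were positive and 3 negative, with a median of 0.16 against 0.02. In hybrid against CAST, 8 were positive and 2 negative, with a median of 0.22 against −0.08. These comparisons share libraries and are not independent of each other.

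**Figure D1:**
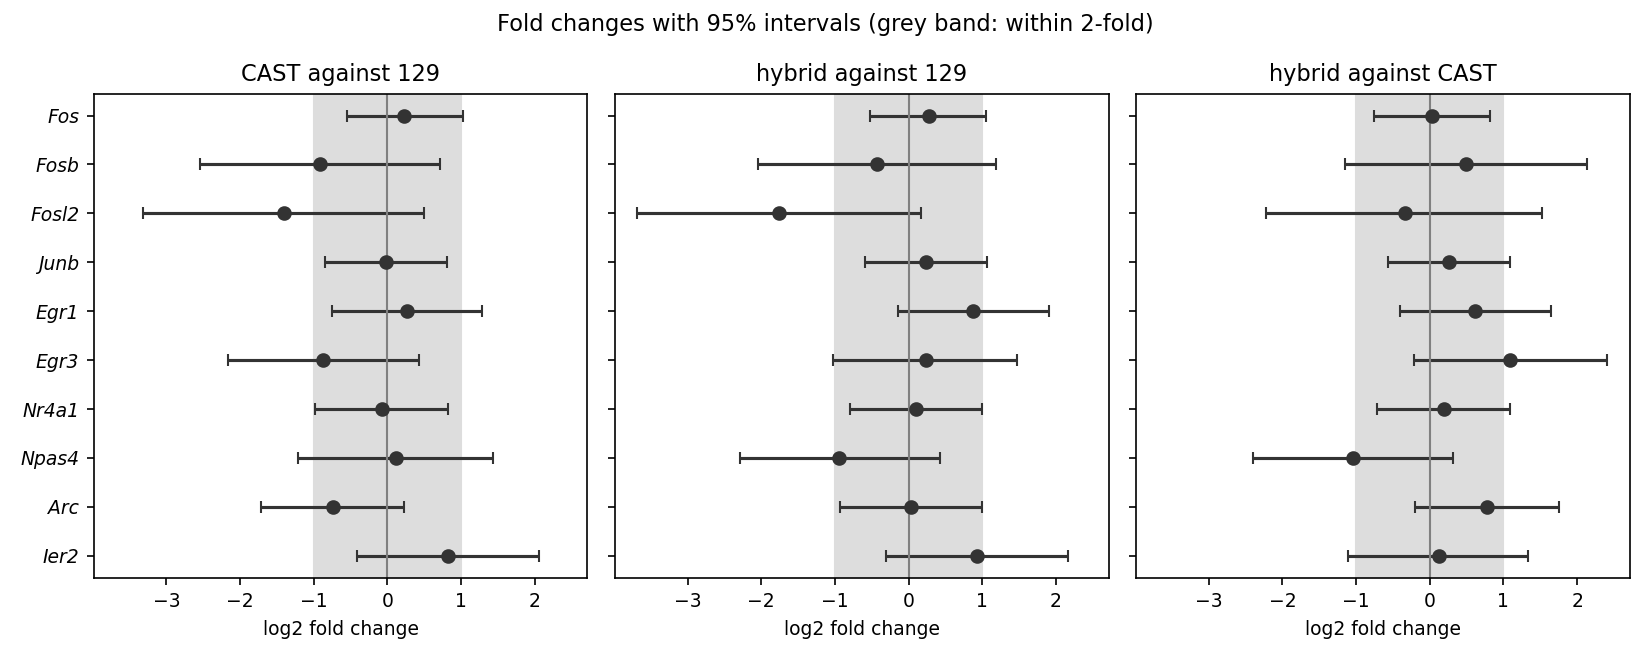
Log2 fold changes of the 10 immediate early genes (points) with 95% intervals (bars) from edgeR, for CAST against 129, hybrid against 129 and hybrid against CAST, with a grey band for changes within 2-fold. Every interval crosses 0, and the intervals of Fosl2 are the widest.

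For some members the libraries of a pair of lines did not overlap. The 3 members Fosl2, Egr3 and Arc were lower in all CAST libraries than in any 129 library, beside 28.6% of genes tested whose groups did not overlap in CPM. In hybrid against 129, Egr1 was higher and Fosl2 lower without overlap, beside 37.5% of genes tested. In hybrid against CAST, Egr3 was higher without overlap, beside 19.2% of genes tested.

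**Figure D2:**
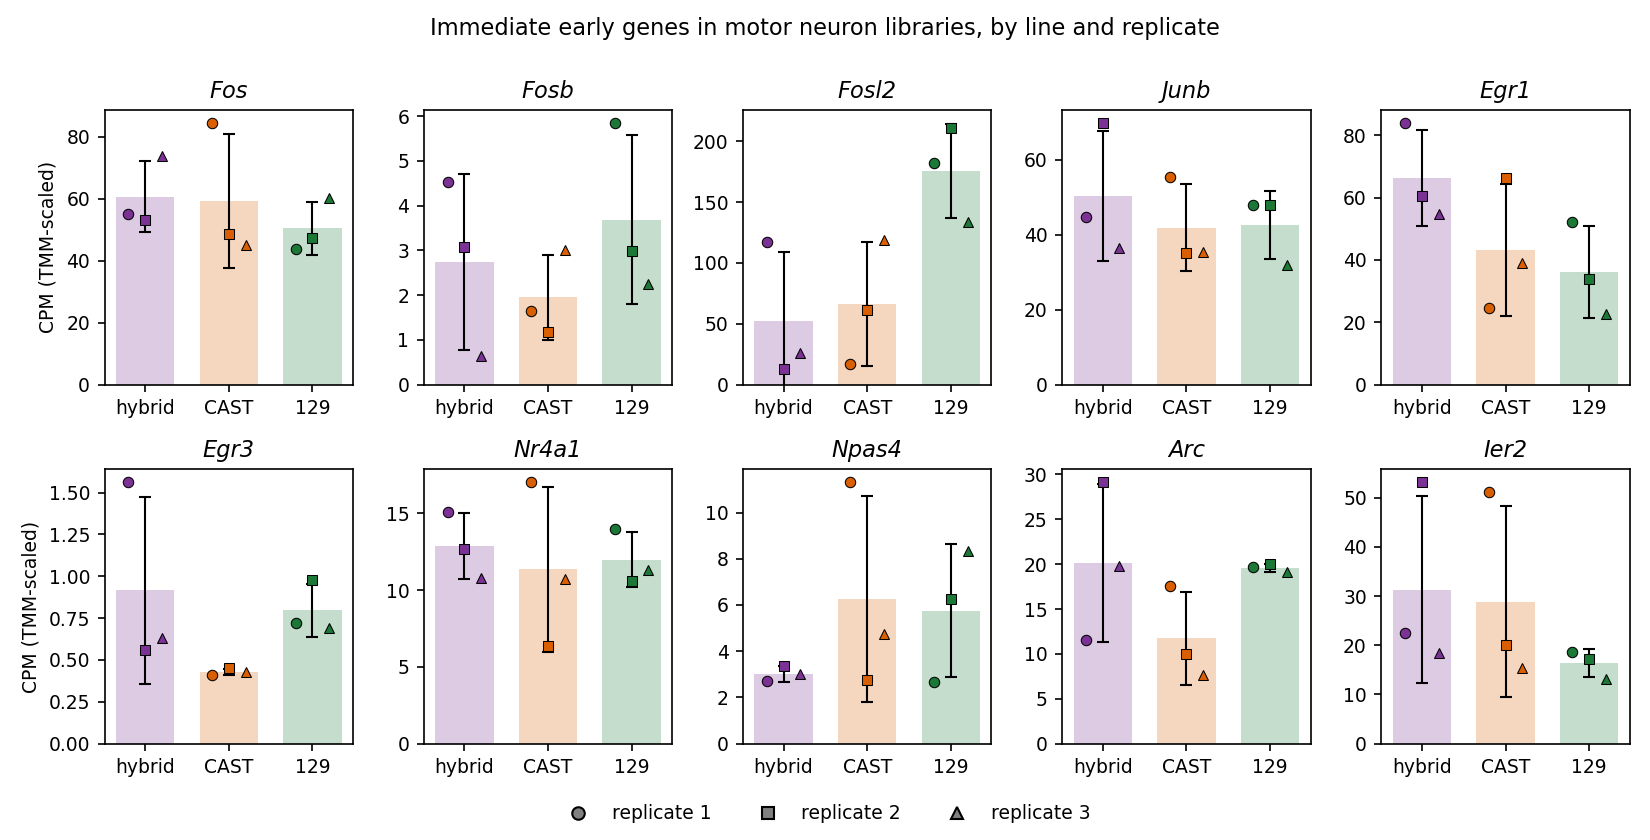
CPM of each immediate early gene by line (hybrid, CAST, 129), with points for libraries, bars for group means and error bars for the SD (n = 3). Only Fosl2, Egr3, Arc and Egr1 have a pair of lines whose libraries do not overlap, and Fosl2 spans 13.0 to 211 CPM.

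The FOS and JUN families supply the partners of the dimeric factor AP-1. Fos (ENSMUSG00000021250, chr12:85473890-85477273, + strand, mm10), the classical marker of recent neuronal activity, was at 55.0, 53.1 and 73.9 CPM in hybrid libraries 1 to 3, against 84.4, 48.6 and 45.2 CPM in CAST libraries and 43.7, 47.4 and 60.2 CPM in 129 libraries. The 3 lines overlapped, and the highest library was CAST 1. Fos had a log2 fold change of 0.27 in hybrid against 129 (95% interval −0.52 to 1.05), 0.23 in CAST against 129 (−0.55 to 1.02) and 0.03 in hybrid against CAST (−0.76 to 0.82). Its within-group SD of log2 CPM, 0.35, was larger than that of 17.5% of genes tested. By this measure alone, which does not match genes for their level, Fos was among the steadier genes in these libraries.

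Fosl2 (ENSMUSG00000029135, chr5:32135801-32157842, + strand), which encodes the FOS-family protein FRA2, varied most. It was at 117, 13.0 and 26.2 CPM in hybrid libraries, against 17.3, 61.7 and 119 CPM in CAST libraries and 182, 211 and 134 CPM in 129 libraries. All 129 libraries lay above every hybrid and CAST library, and the lowest libraries were hybrid 2 and CAST 1. The log2 fold change of Fosl2 was −1.76 ± 0.86 (SE) in hybrid against 129 (95% interval −3.68 to 0.17, edgeR adjusted p = 0.258). In CAST against 129 it was −1.41 ± 0.85 (−3.32 to 0.49, edgeR adjusted p = 0.444). Its within-group SD of log2 CPM was 1.25, above that of 90.8% of genes tested. Without hybrid 1, the hybrid library with the most Fosl2, the log2 fold change in hybrid against 129 was −3.19 with an edgeR adjusted p of 0.0512, the lowest of 705 member fits under alternative settings. Without CAST 3, the value in CAST against 129 was −2.15.

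Fibroblast and mesenchyme marker sums were given above as ranges, and by library they ran beside Fosl2 in part. The sums were 55200, 17000 and 3050 CPM in hybrid libraries 1 to 3, 6900, 11000 and 17000 CPM in CAST libraries, and 45700, 44600 and 10800 CPM in 129 libraries. Within the hybrid and CAST lines the library with the highest sum also had the highest Fosl2, while hybrid 3 had a sum below that of hybrid 2 and more Fosl2. The library 129 3 had a sum below those of CAST 2, CAST 3, hybrid 1 and hybrid 2, and more Fosl2 than any of them. In edgeR 0 of the 14 markers were called in any comparison, with up to 4 at an unadjusted p below 0.05, and DESeq2 called up to 4. The part of these markers in the Fosl2 values was not tested. Fosl2 is the longest member by exons, and its values in the libraries that stood apart by length are given with Ier2 below.

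**Figure D3:**
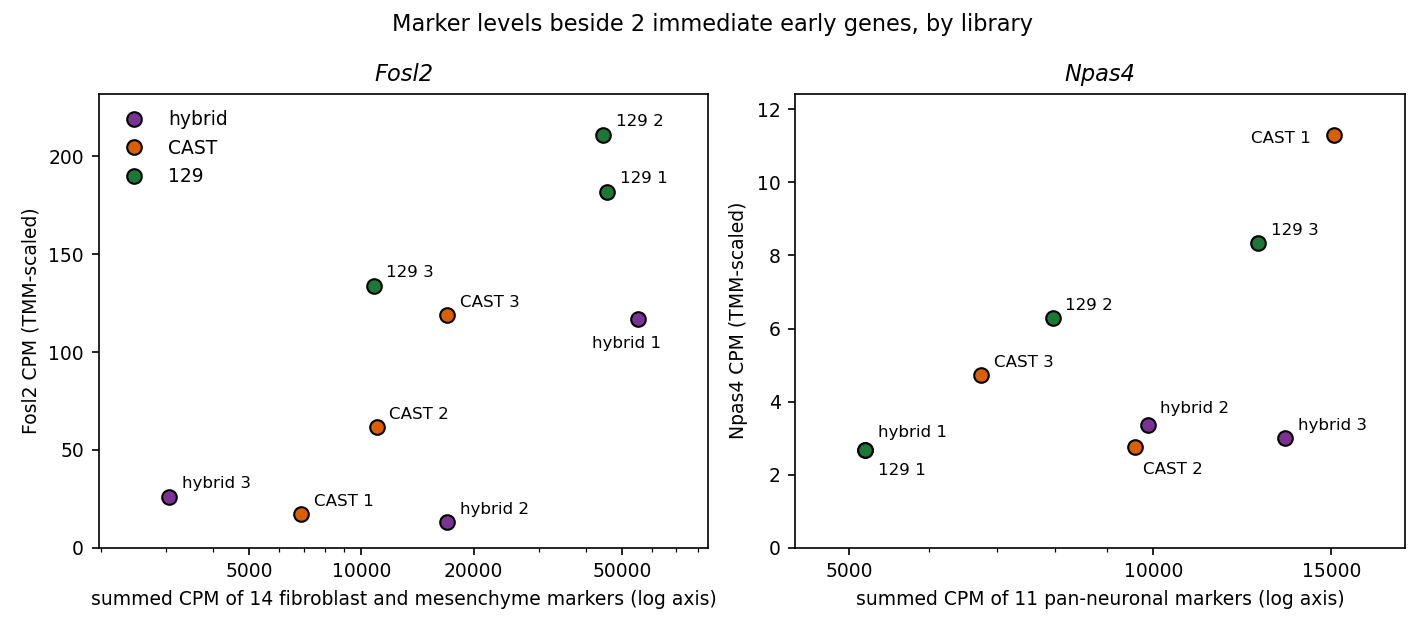
Left, Fosl2 CPM against the summed CPM of 14 fibroblast and mesenchyme markers by library; right, Npas4 CPM against the summed CPM of 11 pan-neuronal markers, both on log horizontal axes. The library 129 3 has 134 CPM of Fosl2 at a marker sum of 10800 CPM, and hybrid 3 has 3.0 CPM of Npas4 at a neuronal sum of 13500 CPM.

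The makeup of the FOS family differed by library. Measured as TPM (counts per exon length, scaled to a common total), Fosl2 made up 30.5%, 5.19% and 7.49% of the summed level of Fos, Fosb, Fosl1 and Fosl2 in hybrid libraries 1 to 3, 4.12%, 21.9% and 32.7% in CAST libraries, and 44.7%, 47.4% and 33.1% in 129 libraries. The share was higher in every 129 library than in any other, but only narrowly for 129 3 (33.1%) beside CAST 3 (32.7%). Fos made up 59.1%, 87.3% and 86.9% of that sum in hybrid libraries, 82.5%, 70.9% and 51.2% in CAST libraries, and 44.3%, 43.9% and 61.3% in 129 libraries. The shares use exon length, along which the libraries differed as described above, and they were not tested.

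Fosb (ENSMUSG00000003545, chr7:19302696-19310051, − strand), whose product can accumulate on repeated stimulation as a truncated form, was scarce. It was at 4.53, 3.07 and 0.629 CPM in hybrid libraries, against 1.65, 1.18 and 3.01 CPM in CAST libraries and 5.84, 2.99 and 2.24 CPM in 129 libraries. The lines overlapped, and the lowest library, hybrid 3, rested on 9 counts. Its log2 fold change was −0.92 ± 0.72 (SE) in CAST against 129 and −0.43 ± 0.72 in hybrid against 129, and the value in hybrid against 129 was −1.12 without hybrid 1, 0.05 without 129 1 and 0.04 without hybrid 3.

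Junb (ENSMUSG00000052837, chr8:84974484-84978718, − strand), a JUN-family partner in AP-1, was at 44.6, 69.7 and 36.4 CPM in hybrid libraries, against 55.4, 35.0 and 35.3 CPM in CAST libraries and 47.8, 47.9 and 32.0 CPM in 129 libraries. The lines overlapped throughout, with hybrid 2 highest. For Junb the log2 fold change was −0.02 in CAST against 129 (95% interval −0.85 to 0.81) and 0.24 in hybrid against 129 (−0.59 to 1.07). Of its exonic bases, 7.52% overlap Prdx2 on the opposite strand, and the strand setting of the counts is not given in the sources used here, so reads there cannot be told apart.

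AU-rich elements in 3′ UTRs, bound by decay factors such as tristetraprolin, are a textbook feature of short-lived mRNAs. They were searched on the mRNA strand of the longest protein-coding transcript of each gene, as the pentamer ATTTA and the longer nonamer TTATTTATT, which contains the pentamer. The nonamer was found in 2 of 10 members, Fos and Fosl2, beside 7.6% of 20962 genes with a 3′ UTR. These sites are shown because they hold the full nonamer (in capitals) within 30 bases, Fos at chr12:85477103-85477132 and Fosl2 at chr5:32156871-32156900, both on the + strand of mm10, from GENCODE transcripts.
Fos: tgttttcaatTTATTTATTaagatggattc
Fosl2: atttattttaTTATTTATTttaaatgttta
The Fos site begins 655 bases into a 3′ UTR of 815 bases, and the Fosl2 site 3692 bases into one of 4653 bases. In the last 400 bases of the 3′ UTR, the pentamer was present in 6 of 10 members, beside 53.0% of 15055 genes with a 3′ UTR at least that long. The median density over the whole 3′ UTR was 1.68 pentamers per kilobase in members and 1.22 over all genes. Arc and Ier2 held no pentamer, and Nr4a1 had the highest density at 5.52 per kilobase. A match of letters is a description and not a bound site.

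The EGR genes encode zinc finger factors. Egr1 (ENSMUSG00000038418, chr18:34859823-34864984, + strand) was at 83.8, 60.6 and 54.7 CPM in hybrid libraries, against 24.6, 66.3 and 38.9 CPM in CAST libraries and 52.0, 33.8 and 22.6 CPM in 129 libraries. All hybrid libraries lay above every 129 library, and CAST libraries spread across both. Egr1 had a log2 fold change of 0.88 ± 0.46 (SE) in hybrid against 129 (95% interval −0.15 to 1.90, edgeR adjusted p = 0.281), 0.62 ± 0.45 in hybrid against CAST (−0.40 to 1.64) and 0.26 ± 0.45 in CAST against 129 (−0.75 to 1.28). Over the alternative settings the value in hybrid against 129 stayed between 0.62 and 1.22, with adjusted p no lower than 0.181.

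Egr3 (ENSMUSG00000033730, chr14:70077203-70082614, + strand), an inducible relative of Egr1, was close to the limit of detection. It was at 1.56, 0.559 and 0.629 CPM in hybrid libraries, against 0.413, 0.449 and 0.430 CPM in CAST libraries and 0.723, 0.976 and 0.689 CPM in 129 libraries. These values rest on between 4 and 22 counts. CAST libraries lay below every hybrid and 129 library, by margins of few reads. The log2 fold change of Egr3 was 1.09 ± 0.59 (SE) in hybrid against CAST (95% interval −0.22 to 2.41, edgeR adjusted p = 0.440) and −0.87 ± 0.58 in CAST against 129 (−2.17 to 0.43, edgeR adjusted p = 0.479). Without hybrid 1 the value in hybrid against CAST was 0.46.

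Nr4a1 (ENSMUSG00000023034, chr15:101254269-101274795, + strand), an orphan nuclear receptor induced by calcium, was at 15.1, 12.7 and 10.8 CPM in hybrid libraries, against 17.0, 6.34 and 10.7 CPM in CAST libraries and 14, 10.6 and 11.3 CPM in 129 libraries. The lines overlapped, and CAST alone spanned the whole range. Group means were 12.9 ± 2.12 CPM in the hybrid, 11.4 ± 5.38 CPM in CAST and 12.0 ± 1.79 CPM in 129 (SD, n = 3 each). Nr4a1 had a log2 fold change of 0.10 in hybrid against 129 (95% interval −0.80 to 1.0) and −0.08 in CAST against 129 (−0.98 to 0.82).

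Npas4 (ENSMUSG00000045903, chr19:4984355-4990316, − strand), the neuron-restricted factor that responds to calcium entry, was at 2.69, 3.35 and 3.0 CPM in hybrid libraries, against 11.3, 2.75 and 4.73 CPM in CAST libraries and 2.67, 6.28 and 8.33 CPM in 129 libraries. Hybrid libraries lay close together at the low end, where CAST 2 and 129 1 also lay. The log2 fold change of Npas4 was −1.04 ± 0.60 (SE) in hybrid against CAST (95% interval −2.40 to 0.31, edgeR adjusted p = 0.496) and −0.94 ± 0.60 in hybrid against 129 (−2.29 to 0.42, edgeR adjusted p = 0.363). Without CAST 1 the value in hybrid against CAST was −0.32.

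The 11 pan-neuronal markers summed to 5190, 9870 and 13500 CPM in hybrid libraries 1 to 3, 15100, 9590 and 6760 CPM in CAST libraries, and 5190, 7950 and 12700 CPM in 129 libraries. Within 129, Npas4 and these markers had the same order over libraries, and CAST 1 was highest in both. Hybrid 3 had more of the neuronal markers than 129 2 and less Npas4. The part of neuronal content in the Npas4 values was not tested. Of the marker lists, edgeR called Mog, an oligodendrocyte gene, and Cx3cr1, a microglial receptor, higher in the hybrid against 129 and against CAST, and these genes and the astrocyte gene Gfap against the midparent. Of 7 oligodendrocyte markers tested, 2 were positive in hybrid against 129 (median log2 fold change −1.44) and 5 in hybrid against CAST (median 1.07), and of 7 astrocyte markers 3 were positive against the midparent (median −0.34). Of 6 microglia and blood markers only 2 were tested, Cx3cr1 and Csf1r. Csf1r was at a mean of 8.3 CPM in the hybrid, 9.92 CPM in CAST and 5.48 CPM in 129, and was not called. The Mog call in hybrid against 129 was lost in DESeq2 and without 129 2, 129 3 or any single hybrid library, with adjusted p up to 0.11. Without CAST 2 the calls against CAST were lost for Mog (edgeR adjusted p = 0.0512) and Cx3cr1 (0.0503). The Gfap call was lost with CAST 1 and hybrid 2 left out (0.0687), and without 129 3, CAST 3 or hybrid 2, with adjusted p up to 0.0974.

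Arc (ENSMUSG00000022602, chr15:74669083-74672570, − strand) is the effector gene of the set, whose protein acts at synapses on the trafficking of AMPA receptors. It was at 11.5, 29.1 and 19.8 CPM in hybrid libraries, against 17.6, 9.99 and 7.67 CPM in CAST libraries and 19.7, 20.0 and 19.1 CPM in 129 libraries. All CAST libraries lay below all 129 libraries, which differed by less than 1 CPM from each other, while hybrid libraries spanned both. The log2 fold change of Arc was −0.74 ± 0.43 (SE) in CAST against 129 (95% interval −1.71 to 0.23, edgeR adjusted p = 0.434). It was 0.78 ± 0.43 in hybrid against CAST (−0.20 to 1.75, edgeR adjusted p = 0.472) and 0.03 ± 0.43 in hybrid against 129 (−0.93 to 1.0). With CAST 1 and hybrid 2 left out, the value in CAST against 129 was −1.18, with an unadjusted p of 0.00617 and an adjusted p of 0.130. With the length trend removed it was −0.96, with an unadjusted p of 0.0166 and an adjusted p of 0.199.

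Ier2 (ENSMUSG00000053560, chr8:84661331-84662852, − strand), a nuclear protein induced by growth factors, is the shortest member, with a single exon of 1522 bases. It was at 22.4, 53.1 and 18.4 CPM in hybrid libraries, against 51.2, 20.0 and 15.4 CPM in CAST libraries and 18.7, 17.3 and 13.1 CPM in 129 libraries. Hybrid 2 and CAST 1 lay far above every other library, and the remaining libraries of the 3 lines overlapped. Its log2 fold change was 0.93 ± 0.55 (SE) in hybrid against 129 (95% interval −0.31 to 2.17) and 0.82 ± 0.55 in CAST against 129 (−0.42 to 2.05). With hybrid 2 and CAST 1 left out these values were 0.33 and 0.07, and with the length trend removed they were −0.04 and 0.13.

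Differences of hybrid 2 and CAST 1 from the other libraries of their lines were opposite in sign for the shortest and the longest member. In hybrid 2, Ier2 was higher by 1.38 log2 units than the mean of hybrid 1 and hybrid 3, and in CAST 1 by 1.54 than the mean of CAST 2 and CAST 3. Fosl2, with 9680 exonic bases, differed by −2.08 in hybrid 2 and by −2.29 in CAST 1. In CAST 1, every member up to Npas4, with 4136 exonic bases, was higher, and every member from Egr3, with 4406, upward was lower. The sizes of these differences did not follow length in order. In hybrid 2 the signs were mixed along length, with Fos at −0.26 and Arc at 0.94. Npas4 was higher by 1.60 in CAST 1 and by 0.23 in hybrid 2, and Fosb, the second longest with 6243 exonic bases, was higher by 0.76 in hybrid 2 and differed by −0.19 in CAST 1. For Fosl2, leaving both libraries out gave −1.29 in hybrid against 129 and −0.99 in CAST against 129, and removing the length trend gave −1.32 and −1.24, none past the threshold.

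**Figure D4:**
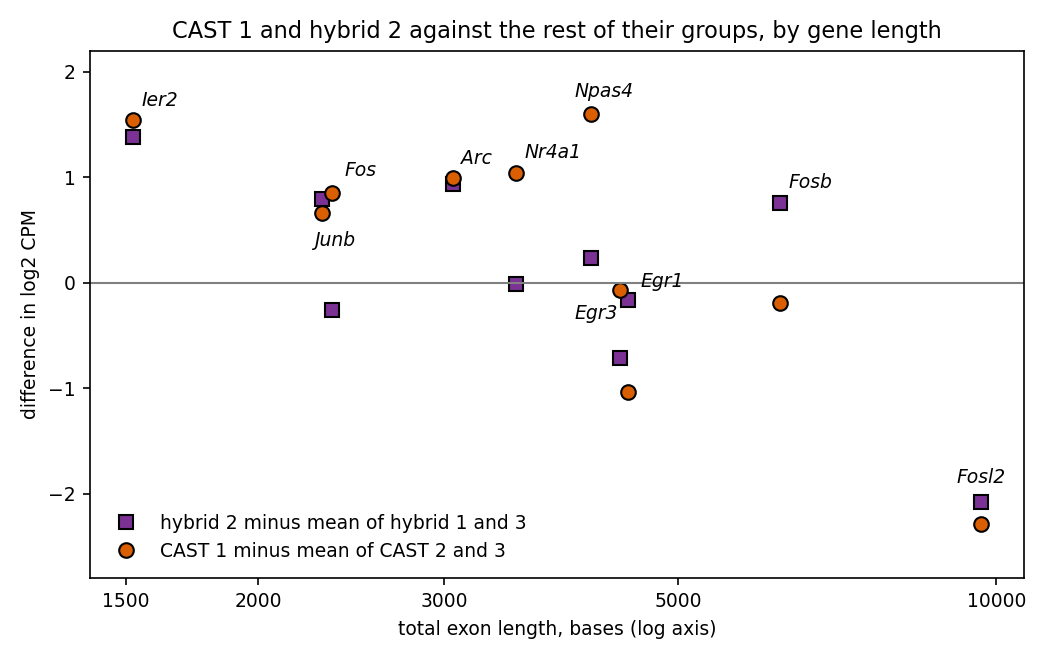
Difference in log2 CPM of hybrid 2 from the mean of hybrid 1 and 3 (squares) and of CAST 1 from the mean of CAST 2 and 3 (circles), against total exon length in bases on a log axis, for each immediate early gene. Ier2, the shortest, is highest in hybrid 2 at 1.38, and Fosl2, the longest, is lowest in both at −2.08 and −2.29.

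Compared per exon length, mean levels over the 9 libraries ran from 92.9 TPM for Fos, through 73.3 TPM for Junb, 57.8 TPM for Ier2, 44.4 TPM for Fosl2, 43.0 TPM for Egr1, 21.1 TPM for Arc, 13.2 TPM for Nr4a1, 4.59 TPM for Npas4 and 1.80 TPM for Fosb, to 0.658 TPM for Egr3. From Fos down to Arc, no neighbours in this order differed by more than the SD of their log2 ratio over libraries. Across wider steps, Arc lay below Fos, Junb and Ier2 in all 9 libraries. From Arc down, each neighbour differed by more than that SD. With the length of the longest transcript in place of all exons, Fosl2 moved above Ier2 and the other places were unchanged. In TPM, the mean of Fos lay above that of 84.8% of genes tested and that of Egr3 above 1.80%. Fos averaged 91.1 ± 38.6 TPM in the hybrid, 90.3 ± 5.61 TPM in CAST and 97.3 ± 20.1 TPM in 129 (SD, n = 3 each). These means differed by less than the SD of the hybrid and that of 129, while 129 lay above CAST by more than the smaller CAST SD.

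Members did not vary together as a block over the 9 libraries. The Pearson correlation of log2 CPM between members ran from −0.94 for Egr1 with Npas4 to 0.85 for Junb with Ier2, and was −0.81 for Fosl2 with Ier2. The median within-group SD of log2 CPM was 0.54 over the members and 0.65 over all genes tested, and 4 of 10 members, Fosb, Fosl2, Npas4 and Ier2, were above the median of all genes. The mean of the 10 genes, each standardised over the 9 libraries, was 0.43, 0.38 and −0.27 SD units in hybrid libraries 1 to 3, 0.36, −0.68 and −0.47 in CAST libraries, and 0.21, 0.18 and −0.12 in 129 libraries. This mean was highest in hybrid 1 and lowest in CAST 2, and each line held libraries on both sides of 0. Among tested protein-coding genes, 11225 were compared with that mean over the 9 libraries, which differ in depth, length slope and cell makeup. The nearest by Pearson correlation, given as a description, were Npm1 (0.96), Wdr36, Ppp1r2, Klf16, Zyx, Lman2, Stbd1 and Uba2 (0.918), and 3 of these 8 were also among the nearest 8 by Spearman correlation. For single members, the nearest genes were Abcc1 and Luzp1 for Fosl2 (0.994 each), Ctps2 for Fos (0.985), Ercc1 for Ier2 (0.987), Elk3 for Fosb (0.94) and Fam241a for Npas4 (0.949).

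The rest of the pathway was followed in 7 lists holding 135 genes, of which 122 were tested. The deposited matrix had no row for Egr4, Csrnp1, Sik1, Arl4d, Pim1, Zfp36l1, Btg1, Grin2a, Chrnb2, Hspa1a, Hspa8 and Dnaja1. The levels of these absent genes are not known here. Crh had a row and failed the filter on low counts. By edgeR, 1 of 122 was called in CAST against 129 (0.82%, beside 0.917% of all genes tested) and 4 in hybrid against 129 (3.28%, beside 7.02%). In hybrid against CAST 3 were called (2.46%, beside 6.0%), and 3 against the midparent (2.46%, beside 7.34%). Of 16 other inducible transcription factors tested, 0 were called in any comparison by edgeR, DESeq2 or limma-voom, and 2 had an unadjusted edgeR p below 0.05 in hybrid against 129. Jun, the main JUN-family partner of FOS, was at 81.1 ± 26.9 CPM in the hybrid, 101 ± 34.7 CPM in CAST and 166 ± 27.5 CPM in 129 (SD, n = 3 each), and its log2 fold change in hybrid against 129 was −1.03 ± 0.40 (SE; adjusted p = 0.173 in edgeR). Klf6, a zinc finger factor, had a log2 fold change of −1.16 ± 0.66 there (edgeR adjusted p = 0.317).

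Among 17 other immediate early genes tested, edgeR called 1 in hybrid against CAST, beside 6.0% of all genes tested, and 0 in the other comparisons, where 1 to 3 had an unadjusted p below 0.05. DESeq2 called 1 in each of the 4 comparisons, and limma-voom 1 in hybrid against CAST and 1 in hybrid against 129. Ppp1r15a, which encodes the stress-induced phosphatase regulator GADD34, fell in hybrid against CAST, at 41.5, 29.1 and 28.2 CPM in hybrid libraries, against 167, 59.0 and 99.1 CPM in CAST libraries and 57.2, 60.0 and 49.4 CPM in 129 libraries. Its log2 fold change in hybrid against CAST was −1.72 ± 0.42 (SE, edgeR adjusted p = 0.0408). The call was lost without any single library other than CAST 2, with adjusted p up to 0.157, and it was 0.121 with CAST 1 and hybrid 2 left out. Ccn2, a matricellular gene that responds to SRF and YAP, had a log2 fold change of −1.41 ± 0.82 in CAST against 129 (edgeR adjusted p = 0.434).

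Feedback genes restrain the response, as phosphatases of ERK or as RNA decay factors. Of 14 tested, 0 were called by edgeR, with 2 at an unadjusted p below 0.05 in hybrid against 129 and 1 called there by DESeq2. Dusp4, an ERK phosphatase, was at 48.7 ± 23.3 CPM in the hybrid, 62.3 ± 37.3 CPM in CAST and 162 ± 22.6 CPM in 129 (SD, n = 3 each), and its log2 fold change in hybrid against 129 was −1.74 ± 0.54 (SE; adjusted p = 0.103 in edgeR). With CAST 1 and hybrid 2 left out, that of Dusp4 passed the threshold at 0.0446. Spred1, an inhibitor of RAS signalling, had −1.68 ± 0.80 there (edgeR adjusted p = 0.250). Of 19 late-response neuronal genes tested, 0 were called by edgeR in any comparison, while 4 in hybrid against 129 had an unadjusted p below 0.05 and 4 were called by DESeq2. Their median log2 fold change was −0.82 in hybrid against 129 and −0.87 in CAST against 129, beside 0.02 and 0.06 over all genes tested. The medians of the other pathway lists were negative too, from −0.2 to −0.58 in hybrid against 129 and from −0.06 to −0.54 in CAST against 129. Medians of the motor neuron markers were −0.75 and −0.61 in the same comparisons and those of the pan-neuronal markers −0.52 and −0.10, and their part in the late-response values was not tested. Syt4, a synaptotagmin of dense-core vesicles, had a log2 fold change of −2.05 ± 0.72 in hybrid against 129 (edgeR adjusted p = 0.140, and 0.0406, past the threshold, with CAST 1 and hybrid 2 left out), and Vgf, a secreted neuropeptide precursor, −0.58 ± 0.46 (edgeR adjusted p = 0.444).

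Of 27 upstream regulators tested, edgeR called 2 in hybrid against 129, both lower, a share near the 7.02% of all genes tested. DESeq2 called 4 there and 2 in hybrid against CAST. Ppp3r1, the regulatory subunit of calcineurin, was at 67.4, 17.6 and 59.0 CPM in hybrid libraries, against 87.3, 184 and 197 CPM in CAST libraries and 201, 234 and 306 CPM in 129 libraries. Its log2 fold change was −2.36 ± 0.56 (SE, edgeR adjusted p = 0.0332) in hybrid against 129 and −2.03 ± 0.51 (edgeR adjusted p = 0.0412) against the midparent. Atf1, a relative of CREB, was at 10.8, 7.54 and 5.73 CPM in hybrid libraries, against 10.2, 10.6 and 15.5 CPM in CAST libraries and 30.9, 25.4 and 18.3 CPM in 129 libraries, and its log2 fold change in hybrid against 129 was −1.63 ± 0.38 (SE; adjusted p = 0.0319 in edgeR). In hybrid against 129 both calls were lost without 129 1, 129 2, 129 3, CAST 2, hybrid 2 or hybrid 3, with adjusted p up to 0.117 for Ppp3r1 and 0.125 for Atf1. With CAST 1 and hybrid 2 left out, the adjusted p was 0.00545 for Ppp3r1 and 0.0581 for Atf1. The midparent call of Ppp3r1 was lost without any single library other than CAST 1, with adjusted p up to 0.1. Mapk3, which encodes ERK1, was at 147, 585 and 296 CPM in hybrid libraries, 737, 207 and 176 CPM in CAST libraries and 132, 129 and 148 CPM in 129 libraries, highest in CAST 1 and hybrid 2, and was not called.

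Of 20 genes of calcium entry and depolarisation tested, 0 were called by edgeR in any comparison, with 3 at an unadjusted p below 0.05 and 2 called by DESeq2 in hybrid against 129. Cacna1b, the pore subunit of N-type calcium channels, stood at a log2 fold change of −1.10 ± 0.59 there (SE; adjusted p = 0.291 in edgeR), and Cacna1a, that of P/Q-type channels, −0.29 ± 0.55 (edgeR adjusted p = 0.757).

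Heat shock genes can rise with the immediate early genes when tissue is dissociated. Of 12 on the list 9 were tested, and edgeR called 1, Hspa1b, in CAST against 129, beside 0.917% of all genes tested. It called 2, Hspb1 and Hspa1b, in hybrid against 129 (beside 7.02%), hybrid against CAST (beside 6.0%) and against the midparent (beside 7.34%). Hspb1, a small heat shock protein, rose in the hybrid, at 11.2, 43.0 and 4.61 CPM in hybrid libraries, against 0.516, 0.505 and 0.287 CPM in CAST libraries and 0.778, 0.549 and 0.517 CPM in 129 libraries. Its log2 fold change was 4.97 ± 0.84 (SE, edgeR adjusted p = 0.00685) in hybrid against 129 and 5.46 ± 0.87 (edgeR adjusted p = 0.00523) in hybrid against CAST. In both comparisons Hspb1 stayed past the threshold in the 17 alternative settings looked at, which did not include the replicate block. Hspa1b, an inducible HSP70, had 0 counts in all hybrid libraries, against 14.6, 7.8 and 15.2 CPM in CAST libraries and 0.945, 0.549 and 1.38 CPM in 129 libraries. The deposited matrix had no row for the near-identical Hspa1a, so the level of Hspa1b is uncertain. It was called lower in hybrid against 129 (edgeR adjusted p = 0.0084) and in hybrid against CAST (edgeR adjusted p = 0.00114). It was called higher in CAST against 129 (edgeR adjusted p = 0.0336), a call that was lost without any single CAST or 129 library, with adjusted p up to 0.174. No other heat shock gene tested was called by edgeR, while DESeq2 and limma-voom each called 3 heat shock genes in hybrid against CAST.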

How the data were processed

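Libraries were made from bead-selected polyadenylated RNA of DNase-treated column preparations, with random hexamer priming, per the labels. STAR and mm10 are named in the submitters' processing notes. Which STAR version, read counter, gene annotation and strand setting were used is not given in the sources used here. Whether reads of CAST alleles aligned to mm10 as often as others was not tested. The deposited values are raw counts per Ensembl gene. CAST replicates 7 and 8 belong to another matrix and were not analysed here. Symbols, coordinates and total exon lengths were joined from GENCODE M21 (GRCm38, the same assembly as mm10), which matched 27030 IDs and left 41 without a symbol.

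Genes were kept by filterByExpr with groups (minimum count 10, minimum total 15, minimum proportion 0.7), which left 14839, scaled by TMM and fitted in 1 model over the 9 libraries with robust quasi-likelihood F tests of edgeR 4.0.16 in R 4.3.3. Two-sided p-values were adjusted over every gene tested (Benjamini-Hochberg, threshold 0.05). CPM are TMM-scaled, TPM are counts per total exon length scaled to the same total as CPM, and SE come from the F statistic. Values of few counts are named, and the width of the members' intervals did not follow counts alone, being widest for Fosl2. DESeq2 1.42.0, limma-voom 3.58.1, other filters and scaling, a replicate block, a length offset and left-out libraries were alternatives. The fits were also run on simulated counts with known fold changes, and the outcome is not given here. The 10 genes, the 7 lists and the markers were chosen with earlier results of these data known. The rule named all 10 genes, up to 3 called genes per list and direction by the largest absolute log2 fold change, otherwise the 2 with the highest mean CPM, and the genes most like the members at 5 CPM or more. The text shows a part of the uncalled examples. Same-number libraries were not treated as pairs, since the labels do not pair them. Deviations were correlated above 0.1 in 2 of 9 such pairs (range −0.72 to 0.49). With CAST 1 and hybrid 2 apart by gene length, these correlations cannot show whether equal numbers share a batch.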

Additional observations from a re-analysis of the deposited data

How the results depend on the processing

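No member was called in any of 705 fits under 18 alternative settings, and 17 of 40 member fold changes kept their sign in all of them. The counts of called genes over the whole table moved more. In CAST against 129, edgeR called 136 genes, DESeq2 939, limma-voom 234, the length offset 256 and the fit without CAST 1 and hybrid 2 together 230. In hybrid against 129 the count was 1041 in edgeR and 2100 in DESeq2, in hybrid against CAST 891 and 1597, and against the midparent 1089 and 1790. With a single library left out the counts ran from 26 to 157 in CAST against 129, with 51, 26, 32, 31 and 61 without 129 1, 129 2, 129 3, CAST 2 and CAST 3. They ran from 522 to 1717 in hybrid against 129, with 673, 522, 564 and 1717 without 129 1, 129 2, 129 3 and CAST 1, and from 884 to 1850 against the midparent, with 1850 without CAST 1. The cause was not tested.

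With the replicate block the counts were 6 in CAST against 129, 561 in hybrid against 129 and 526 in hybrid against CAST, Fosb against the midparent was −0.13, and no member was called. The labels do not pair the libraries, and 2 of 9 same-number pairs had deviations correlated above 0.1.

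Some log2 fold changes turned sign. With the length offset, Fos was −0.12 in CAST against 129, −0.22 in hybrid against 129, −0.10 in hybrid against CAST and −0.16 against the midparent. Junb was then −0.31 in hybrid against 129 and −0.14 against the midparent, Arc −0.30 and Nr4a1 −0.06 in hybrid against 129, and Ier2 −0.04 in hybrid against 129, −0.17 in hybrid against CAST and −0.11 against the midparent. Without CAST 1 and hybrid 2, Fos was −0.13 and Npas4 −0.64 in CAST against 129, Junb −0.07 and Arc −0.32 in hybrid against 129, and Fosb −0.09 against the midparent. In limma-voom, Npas4 was −0.04 in CAST against 129, Arc −0.09 in hybrid against 129 and Fosb −0.28 against the midparent. Without the count filter, Arc was −0.05 in hybrid against 129, Fos 0.00 in hybrid against CAST and Fosb −0.03 against the midparent.

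With a single library left out, the following turned sign. In CAST against 129, Fos ran from −0.12 to 0.39, Junb from −0.30 to 0.09, Egr1 from −0.19 to 0.61, Npas4 from −0.63 to 0.47 and Nr4a1 from −0.51 to 0.20. In hybrid against 129, Fosb ran from −1.12 to 0.05, Junb from −0.07 to 0.41, Egr3 from −0.44 to 0.46, Arc from −0.32 to 0.27 and Nr4a1 from −0.07 to 0.22. In hybrid against CAST, Fos ran from −0.14 to 0.37, Fosb from −0.16 to 0.96, Fosl2 from −1.75 to 0.39, Junb from 0.00 to 0.50, Nr4a1 from −0.11 to 0.59 and Ier2 from −0.44 to 0.79. Against the midparent, Fos ran from −0.03 to 0.31, Fosb from −0.64 to 0.50, Junb from −0.03 to 0.42, Nr4a1 from −0.01 to 0.34 and Ier2 from −0.06 to 0.83. Egr3 gave no value with a filter of 1 CPM in 3 libraries, nor in hybrid against CAST fitted on those groups alone, and the midparent could not be fitted on fewer groups. Egr3 rests on 4 to 22 counts per library, while Fosl2, with the widest intervals, rests on 93 to 3461 counts.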
